A study of Mus musculus with 4 samples.

Results

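Divergent, or bidirectional, promoters are stretches of DNA from which 2 genes are transcribed in opposite directions, and the regions described here are the places of phospho-CREB binding at such promoters in MC3T3-E1, an established line of mouse pre-osteoblasts. Chromatin was immunoprecipitated with an antibody to phosphorylated CREB and sequenced after 1 h with 100 nM forskolin, an activator of adenylyl cyclase that raises cAMP, or after 1 h with DMSO, its vehicle. Each treatment had 2 libraries, called biological replicates in the labels, each with its own peak list. All libraries came from the same immortal line, so the spread between them is that of cultures of 1 line and not of animals. The 4 peak lists were merged into 28335 regions wherever peaks shared at least 1 bp. Pairs of protein-coding genes on opposite strands were kept when their transcription start sites (TSS, the 5' ends of the gene records) pointed away from each other and lay at most 1000 bp apart. A region counted as one at a divergent promoter when its centre lay between both TSS or at most 200 bp outside them. There were 808 such pairs with 1599 genes among 22367 protein-coding gene records, and 627 of the 28335 regions met the rule. Coordinates are those of the mouse build mm9.

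CREB is a transcription factor that protein kinase A phosphorylates on a serine of its activation domain when cAMP rises, which lets it recruit coactivators. It binds the cAMP response element (CRE), whose full palindrome is TGACGTCA and whose core, TGACG on one strand and CGTCA on the other, occurs on its own at many bound promoters. Divergent promoters are usually rich in CpG, lack a TATA box and often serve genes with basic duties in DNA repair, translation, RNA processing and mitochondria. Both genes of a pair share the DNA between them, so a bound region there cannot be assigned to one gene by its position.

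The sequences of 8 divergent promoters show how little DNA lies between the 2 start sites and where the CRE stands in it. The first 3 belong to 3 of the 4 highest-ranked regions and hold the core without the palindrome, the next 4 hold the full CRE, and the last belongs to the highest-ranked region that both forskolin libraries and neither vehicle library listed. Each runs 5' to 3' on the plus strand of mm9 from 30 bp before the TSS of the minus-strand gene (named first), which is base 31, to 30 bp past the TSS of the plus-strand gene. Capitals mark every core or full CRE on either strand. The stretches lie at chr6:113481602-113481706 (Tmem111/Fancd2), chr5:125029110-125029179 (Eif2b1/Gtf2h3), chr5:65782652-65782766 (Rpl9/Lias), chr8:82235609-82235749 (Abce1/Anapc10), chr4:56815173-56815247 (Ikbkap/BC026590), chr5:111082406-111082500 (Noc4l/Ddx51), chr15:81230477-81230598 (St13/Xpnpep3) and chr19:10599669-10599764 (Sdhaf2/Cpsf7).
Tmem111/Fancd2: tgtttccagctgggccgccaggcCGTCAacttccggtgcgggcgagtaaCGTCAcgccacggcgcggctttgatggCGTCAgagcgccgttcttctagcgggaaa
Eif2b1/Gtf2h3: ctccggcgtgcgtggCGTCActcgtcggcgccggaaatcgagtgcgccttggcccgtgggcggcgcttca
Rpl9/Lias: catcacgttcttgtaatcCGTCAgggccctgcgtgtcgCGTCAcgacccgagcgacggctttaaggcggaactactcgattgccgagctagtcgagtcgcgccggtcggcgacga
Abce1/Anapc10: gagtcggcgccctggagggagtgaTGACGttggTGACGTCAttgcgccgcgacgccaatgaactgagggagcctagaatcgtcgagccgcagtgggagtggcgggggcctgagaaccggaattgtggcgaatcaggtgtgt
Ikbkap/BC026590: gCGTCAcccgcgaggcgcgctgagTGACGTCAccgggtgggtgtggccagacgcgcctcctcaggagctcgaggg
Noc4l/Ddx51: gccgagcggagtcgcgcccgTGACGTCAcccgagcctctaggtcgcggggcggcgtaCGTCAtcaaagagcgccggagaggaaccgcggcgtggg
St13/Xpnpep3: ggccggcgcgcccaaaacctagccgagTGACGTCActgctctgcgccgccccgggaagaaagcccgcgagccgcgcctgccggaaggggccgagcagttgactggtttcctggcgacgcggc
Sdhaf2/Cpsf7: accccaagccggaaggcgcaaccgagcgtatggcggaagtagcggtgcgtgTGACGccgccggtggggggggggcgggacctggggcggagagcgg
In the Tmem111/Fancd2 promoter the start sites are 44 bp apart, and 3 cores stand in and around that gap. The start sites of Eif2b1 and Gtf2h3 are only 9 bp apart, and their 1 core lies inside the transcribed side of Eif2b1. The full CRE of Ikbkap/BC026590 and that of Abce1/Anapc10 lie within a few bases of the minus-strand gene's TSS. The single core of Sdhaf2/Cpsf7 lay outside the 201 bp window around the region's centre that was used for the motif counts below.

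Phospho-CREB regions at divergent promoters were mostly present with and without forskolin. A peak was listed in all 4 libraries at 515 of the 627 regions (82.1%, Wilson 95% interval 78.9 to 84.9), where 31.5% of all 28335 regions were. Of 8055 regions at other promoters, meaning regions within 1 kb of the nearest TSS of a gene in no such pair, 61.6% (60.6 to 62.7) were in all libraries. Because the rule keeps divergent regions close to a TSS, the nearer comparison is the 5284 of those regions within 200 bp of the TSS, of which 72.6% (71.4 to 73.8) were in all libraries. Of 19510 regions farther than 1 kb from a TSS, 17.4% were. These intervals cover counting error only, and regions are not independent replicates.

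Few divergent promoters were listed after forskolin alone. A peak in both forskolin and neither vehicle library was found at 11 of the 627 regions (1.75%, 0.982 to 3.11), where 18.3% of all regions were of that kind. The share was 4.16% at other promoters within 200 bp of a TSS, 5.75% at all other promoters and 24.1% farther than 1 kb away. A peak in both vehicle and neither forskolin library was found at 2 divergent regions (0.319%), beside 0.441% of all regions. Another 50 regions (7.97%) were listed in both forskolin libraries and 1 vehicle library, beside 12.1% of all regions. A further 9 (1.44%) were listed in both vehicle libraries and 1 forskolin library, beside 1.40% of all regions. The class of forskolin-only regions depends on every list: among divergent regions its share was 2.94% when the first forskolin list was left out, 4.20% when the second was, 8.77% with vehicle replicate 1 left out and 3.18% with vehicle replicate 2 left out, since fewer lists make the class easier to enter. It was 0.345% when all lists were cut to the length of the shortest. The share over all regions was not computed in these settings, so none of these values can be set beside the 18.3% above.

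**Figure D1:**
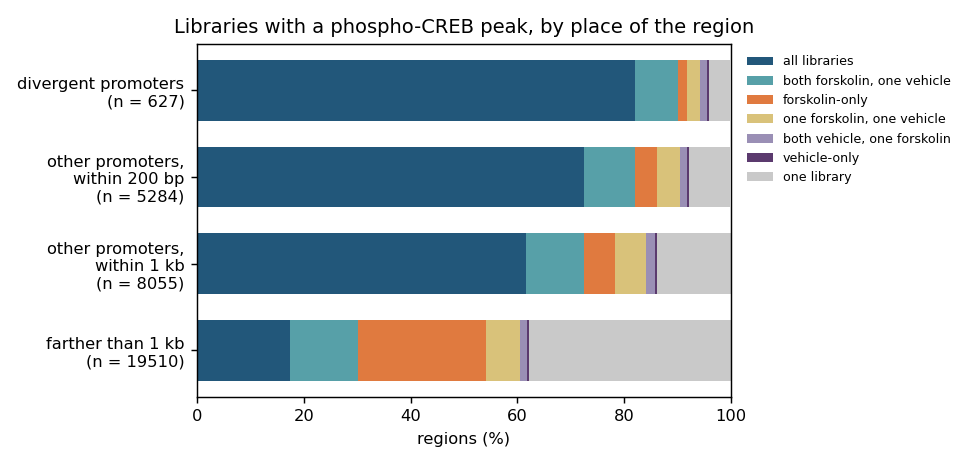
Each bar shows, in percent of the regions of one kind, how many libraries listed a peak there, from divergent promoters at the top to regions farther than 1 kb from a TSS at the bottom. Regions in all libraries make up 82.1% of the top bar and 17.4% of the bottom bar, and forskolin-only regions 1.75% and 24.1%.

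The number of divergent regions with a peak was 609 and 588 in the forskolin libraries, against 587 and 534 in the vehicle libraries. The groups did not overlap, but by 1 region only, and the lists themselves held 25566 and 19371 peaks after forskolin, against 14686 and 10180 after vehicle. The mean was 598 ± 14.8 regions after forskolin and 560 ± 37.5 after vehicle (SD, n = 2 each), a difference of 38.0 with a two-sided exact permutation p of 0.333, the smallest that 2 libraries against 2 can give. The direction of that difference turned when every list was cut to its 10180 highest-scoring peaks: divergent regions then numbered 468 and 465 in the forskolin libraries, against 536 and 534 in the vehicle libraries (exact permutation p = 0.333). The turn was not particular to divergent promoters. In the same cut lists other promoters numbered 4368 and 4422 after forskolin, against 5387 and 5320 after vehicle, while their full lists had 7418 and 6653, against 6530 and 5325. As a share of each full list, divergent regions were 2.38% and 3.04% after forskolin, against 4.00% and 5.25% after vehicle, a difference of -1.91 percentage points in the means (exact permutation p = 0.333). That difference was -0.673 points in the cut lists. Other promoters also made up less of the full lists after forskolin, at 29.0% and 34.3%, against 44.5% and 52.3% after vehicle. The divergent regions were themselves drawn from these lists, so each list's share of them depends on its length. The full forskolin lists held 97.1% and 93.8% of them and the vehicle lists 93.6% and 85.2%, in the order of list length.

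Scores in a list are the authors' values on an unstated scale, so peaks were ranked within their list and given as percentiles, with 100 at the top. The median peak at a divergent promoter stood at percentile 79.2 and 75.3 in the forskolin lists, against 78.2 and 72.1 in the vehicle lists. The median peak at other promoters stood at 67.2 and 64.3 in the forskolin lists, against 66.5 and 62.5 in the vehicle lists. Divergent promoters ranked higher in 4 of 4 lists, by 11.1 ± 1.13 percentile points (SD, n = 4), and the two-sided exact sign-flip permutation p was 0.125, the smallest that 4 libraries allow. Against other promoters within 200 bp of a TSS the mean difference was 7.36 points. Against all other promoters it was 6.10 points when every list was cut to the length of the shortest. With the top 50% of each list it was 4.52 points, so its size depended on how much of the lists was used. Between treatments the median percentile of divergent promoters did not separate, at 77.3 ± 2.77 after forskolin and 75.1 ± 4.35 after vehicle (SD, n = 2 each, exact permutation p = 0.667).

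**Figure D2:**
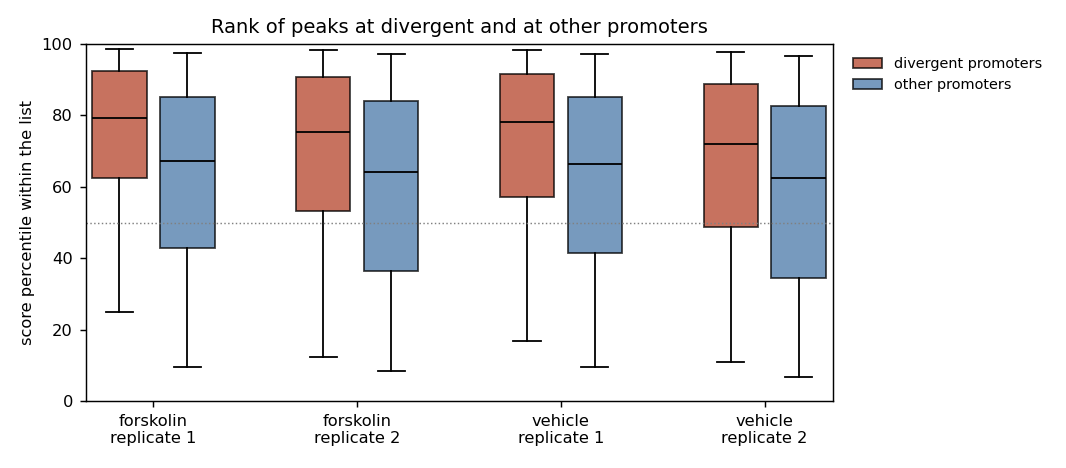
Boxes show the score percentile of peaks within each library's own list (median, quartiles, and whiskers from the 5th to the 95th percentile of the regions), for divergent promoters and for other promoters within 1 kb of a TSS. The median of divergent promoters lies between 72.1 and 79.2 and that of other promoters between 62.5 and 67.2.

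Divergent promoters were well represented at the top of the lists. They made up 515 of the 8930 regions found in all libraries (5.77%, 5.30 to 6.27) and 105 of the 893 that ranked highest among those (11.8%, 9.81 to 14.0), while other promoters made up 55.6% of the 8930 and 75.8% of the 893. Of the 100 highest-ranked regions, 15 were at divergent promoters. For these counts a region's place was set by its lowest rank over the 4 libraries.

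The 10 highest-ranked regions at divergent promoters stood at percentile 99.4 or above in every list. The region of Tmem111/Fancd2, with the Fanconi anaemia repair gene Fancd2, stood at percentile 99.9 in both forskolin lists and 99.9 in both vehicle lists. Hnrnpa2b1/Cbx3, a pair of an RNA-binding protein of splicing and a heterochromatin protein, stood at 99.9 and 99.8 after forskolin, against 99.9 and 99.9 after vehicle. Eif2b1/Gtf2h3 joins a subunit of the exchange factor of translation initiation to a subunit of the general transcription factor TFIIH, and its region stood at 99.8 and 99.9 after forskolin, against 99.9 and 99.8 after vehicle. All 3 regions thus stood at the top of every list. The other 7 pairs were Rpl9/Lias (a ribosomal protein and mitochondrial lipoic acid synthase), Larp7/4930422G04Rik (Larp7 binds 7SK RNA), Ddx49/Cope (an RNA helicase and a coat protein of Golgi vesicles), Brca1/Nbr1 (a repair protein and an autophagy receptor), Zfpl1/Cdca5 (Cdca5 is sororin, which holds sister chromatids together), Abce1/Anapc10 (a ribosome-recycling factor and a subunit of the anaphase-promoting complex) and Ikbkap/BC026590 (Ikbkap is the scaffold of Elongator). Each of the 10 regions held at least 1 CRE core within 100 bp of its centre.

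The CRE core was common at divergent regions and most frequent at the highest-ranked ones. Within 100 bp of the region's centre, on either strand, the core TGACG was found at 255 of 627 divergent regions (40.7%, 36.9 to 44.6). It was found at 37.3% of other promoters within 200 bp of a TSS, 34.5% of all other promoters, 29.1% of all regions and 18.9% of windows of the same 201 bp at the TSS of all protein-coding genes. The full palindrome TGACGTCA, which contains the core, was found at 30 divergent regions (4.78%, 3.37 to 6.75), 5.73% of other promoters within 200 bp, 3.53% of all regions and 1.93% of the windows at all genes. In 1252 windows 2 kb to either side of the divergent regions the core was found in 8.15% and the full CRE in 0 (upper 95% bound 0.306%).

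When the 515 divergent regions of all libraries were put in order of their mean rank over the 4 libraries, the core was found at 80.7% (74.1 to 85.9) of the highest 171, 34.5% (27.8 to 41.9) of the next 171 and 22.0% (16.4 to 28.7) of the lowest 173. Of the 30 regions with a full CRE, 26 were among the highest 171, 3 among the next 171 and 1 among the lowest 173, and all 30 were in all libraries. The 112 divergent regions missing from at least 1 list held the core at 17.9% (11.9 to 26.0). Other promoters of all libraries showed the same kind of gradient, with the core at 71.7% of their highest-ranked 1654 regions and 21.0% of their lowest-ranked 1656. Divergent regions with no core had a median percentile of 71.6 and 64.3 after forskolin, against 68.8 and 61.5 after vehicle. With 1 core the medians were 88.9 and 83.5 after forskolin, against 86.5 and 80.8 after vehicle, and with 3 or more cores they were 96.8 and 97.1 after forskolin, against 95.9 and 96.2 after vehicle. The order by number of cores thus held in every list. A full CRE counts as 2 cores here, and 17 of the 29 regions with 3 or more cores held one. The gradient is a description across regions that share their libraries, and no test was made on it.

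**Figure D3:**
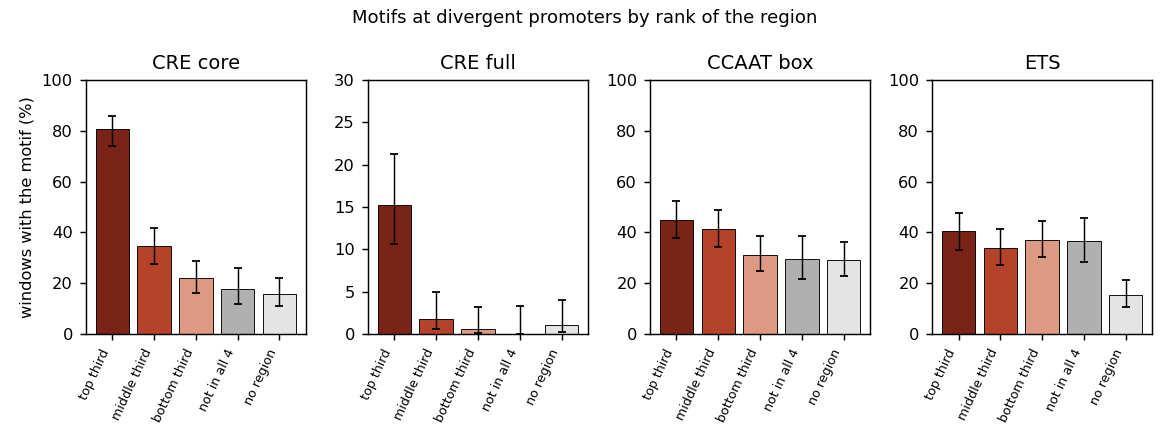
Bars give the percentage of 201 bp windows that hold each motif, with Wilson 95% intervals, for the 171, 171 and 173 divergent regions of all libraries in falling order of rank (marked top, middle and bottom), for the 112 divergent regions not in all 4 libraries, and for 176 divergent pairs with no region, where the window was centred on the midpoint of the pair; the full CRE has its own axis range. The CRE core is at 80.7% in the top group and 22.0% in the bottom one, while the ETS motif is at 40.4% and 37.0%.

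Regions with the full CRE were led by Larp7/4930422G04Rik, Ddx49/Cope, Abce1/Anapc10, Ikbkap/BC026590 and Noc4l/Ddx51, a pair of ribosome-biogenesis genes. The Noc4l/Ddx51 region stood at 99.6 and 99.7 after forskolin, against 99.5 and 99.3 after vehicle. The next 5 were Znrd1/Znrd1as (Znrd1 is a subunit of RNA polymerase I), Mastl/Yme1l1 (the mitotic Greatwall kinase and a mitochondrial protease), Mrpl49/Fau (a mitochondrial ribosomal protein and a precursor of a cytosolic one), St13/Xpnpep3 (a partner of Hsp70 and an aminopeptidase) and Chpf/Tmem198 (Chpf takes part in chondroitin synthesis). The Chpf/Tmem198 region stood lowest of these 10, at 98.1 and 98.4 after forskolin, against 96.7 and 97.6 after vehicle. All 10 were therefore near the top of every list.

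The places of CREs at divergent promoters were measured from the start sites. Motifs were searched only within 100 bp of centres that the rule puts between both TSS or at most 200 bp outside them. Short distances are thus largely set by the rule, and no expected distance was computed. The 255 regions with a core held 376 copies, of which 205 (54.5%, 49.5 to 59.5) lay between both TSS, and the median copy was 31.0 bp from the nearer TSS. The 31 full CREs lay at a median of 16.5 bp from the nearer TSS and 13.5 bp from the region's centre, and 20 of them (64.5%, 46.9 to 78.9) lay between both TSS. The plus strand held 189 of the 376 core copies (50.3%). At least 2 copies were found in 88 divergent regions (14.0%), against 10.5% of other promoter regions. By that way of counting, the 88 include all 30 regions with a full CRE.

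Other promoter motifs were compared in the same windows. The ETS motif CCGGAA was found at 37.0% (33.3 to 40.8) of divergent regions, against 29.8% (28.6 to 31.1) of other promoters within 200 bp and 14.8% of windows at all genes, and its share was 40.4%, 33.9% and 37.0% in the highest, middle and lowest group by rank. The CCAAT box was found at 37.5% (33.8 to 41.3) of divergent regions, against 33.4% of other promoters within 200 bp and 27.4% of windows at all genes, and its share was 45.0%, 41.5% and 31.2% in the same groups. The GC box GGGCGG was found at 50.6%, against 54.8% of other promoters within 200 bp and 40.0% of windows at all genes. The YY1 motif AAGATGGCG stood at 5.58% of divergent regions, against 4.31% of other promoters within 200 bp and 1.94% of windows at all genes. The NRF1 motif GCGCATGCG stood at 3.19%, against 2.40% and 1.70%, and at 1.17%, 3.51% and 4.62% in the highest, middle and lowest group by rank. The E-box CACGTG stood at 6.06% of divergent regions, against 8.04% of all other promoters. The AP-1 motif TGAGTCA stood at 1.59% of divergent regions (0.869 to 2.91), against 1.97% of other promoters within 200 bp and 13.8% of all 28335 regions. The RUNX motif TGTGGT stood at 5.58% of divergent regions (4.04 to 7.66), against 8.02% of other promoters within 200 bp and 24.2% of all regions. The TATA box TATAAA was found at 2.07% of divergent regions, against 2.97% of other promoters. All motifs were searched on both strands in windows of 201 bp.

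The base composition of divergent regions was that of CpG-rich promoters. Their median GC content was 61.7%, against 63.7% at other promoters within 200 bp of a TSS. Their median ratio of observed to expected CpG was 0.878, against 0.852 at those promoters and 0.298 farther than 1 kb from a TSS. The core itself contains a CpG. Within classes of that ratio the share of regions in all libraries was 69.2% (55.7 to 80.1) at divergent promoters and 49.9% (46.2 to 53.6) at other promoters within 200 bp for ratios below 0.6, 77.3% and 70.9% from 0.6 to 0.8, 84.9% and 77.0% from 0.8 to 1.0, and 86.7% and 81.0% above 1.0. Divergent promoters had the higher share in each class, with intervals that overlapped in the second and the last.

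The share of bound divergent promoters ranged from 71.4% to 84.5% over classes of distance between the start sites. A region was found at 632 of 808 pairs (78.2%, 75.2 to 80.9), and the share was 81.1% (72.8 to 87.3) of 111 pairs at most 50 bp apart, 79.7% of 187 pairs 51 to 100 bp apart, 74.1% of 224 pairs 101 to 200 bp apart, 84.5% of 174 pairs 201 to 400 bp apart and 71.4% (62.5 to 79.0) of 112 pairs 401 to 1000 bp apart. The median distance was 142 bp in pairs with a region and 138 bp in pairs without one. At the limits of the rule, 7 of 12 pairs 901 to 1000 bp apart had a region, and so did 16 of 21 pairs 1001 to 1100 bp apart. Of 79 regions centred 101 to 200 bp outside a TSS, 48 were in all libraries, and of 52 regions centred 201 to 300 bp outside, which the rule left out, 21 were.

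One merged region covered both start sites in 375 of the 627 cases (59.8%, 55.9 to 63.6), in 322 of 397 (81.1%) where they were at most 200 bp apart and in 53 of 230 where they were farther apart. Only 9 pairs held 2 regions, and 7 of those were among the pairs 401 to 1000 bp apart. The centre lay between both TSS in 355 of 627 regions (56.6%), on the side of the minus-strand gene in 141 and on the side of the plus-strand gene in 131. It was nearer to the minus-strand gene in 320 regions and to the plus-strand gene in 303, so the counts for both directions were close. The median centre was 72.0 bp from the midpoint of the pair. In the 88 regions of pairs at least 400 bp apart the centre stood at a median of 107 bp from the nearer TSS. In 14 of them it stood in the central part of the gap, when the gap was split into 3 equal parts. The rule also admits centres up to 200 bp outside each TSS, and no expected values were computed. A preference for places near a TSS was therefore not tested. By the annotation, the centre was intergenic in 346 regions (55.2%), in a noncoding part of an exon in 228 (36.4%), in a coding exon in 33 and in an intron in 20.

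**Figure D4:**
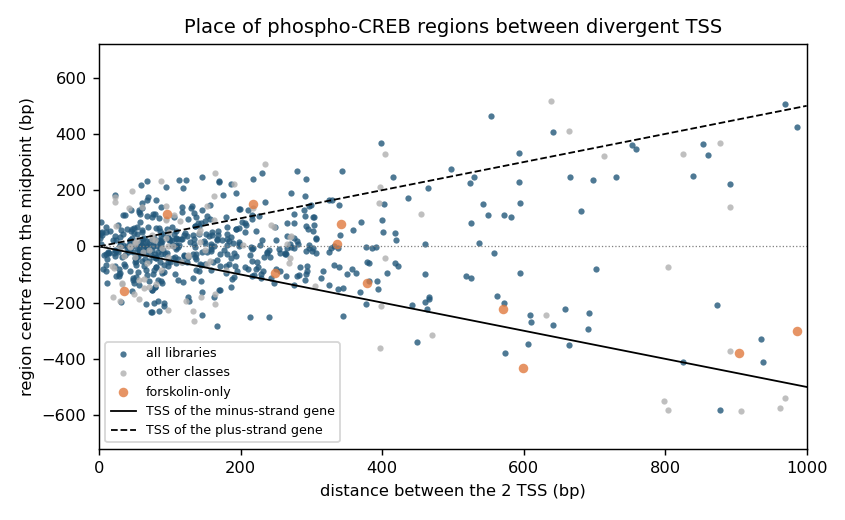
Each point is 1 of the 627 divergent regions, placed by the distance between the 2 TSS in bp and by the region centre's distance from their midpoint in bp, negative towards the minus-strand gene, and lines mark both TSS. In pairs less than 200 bp apart the points spread over both start sites, and at 400 bp or more the median point is 107 bp from the nearer line.

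Genes of divergent pairs were bound near their TSS more often than other genes. A region was centred within 200 bp of the TSS of 1033 of 1599 such genes (64.6%, 62.2 to 66.9), against 5394 of 20768 other protein-coding genes (26.0%, 25.4 to 26.6). Among genes with such a region it was in all libraries for 83.0% of the genes of pairs, against 72.7% of the others. A gene of a pair can be reached by the same region as its partner, and how far the other genes were active in these cells was not measured here, so its part in the difference was not tested. The 632 pairs with a region held the core in 38.6% (34.9 to 42.5) of windows at the midpoint, while the 176 pairs without a region held it in 15.9% (11.2 to 22.0) of windows placed in the same way. For ETS the shares were 38.4% (34.7 to 42.3) with a region and 15.3% (10.8 to 21.4) without one, and for the GC box 55.9% with a region and 60.8% without one.

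Of 22225 gene symbols 1590 (7.15%) were in pairs, and 1243 of those (78.2%) had a region, 1035 (65.1%) one of all libraries and 22 a forskolin-only one. The lists below are set beside these shares, and no test was made on them. DNA repair and replication had 29 of 108 genes in pairs, of which 26 had a region and 24 one of all libraries. Their regions had median percentiles of 86.2 and 80.5 after forskolin, against 84.8 and 85.6 after vehicle. Besides Brca1 they included Orc1 of the replication origin complex, paired with the splicing gene Prpf38a, at 99.5 and 99.0 after forskolin, against 99.2 and 97.6 after vehicle. Trmt6/Mcm8 and Aimp2/Pms2 followed (Aimp2 is a scaffold of the tRNA synthetase complex and Pms2 a mismatch repair gene), with all 4 percentiles at or above 94.5.

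Splicing genes were bound at 16 of 16 pair members, 15 of them in all libraries, with median percentiles of 91.3 and 91.6 after forskolin, against 90.7 and 78.6 after vehicle. Hnrnpa2b1/Cbx3, Prpf38a/Orc1, Cdc26/Prpf4 and Srsf11/Lrrc40 led them. Aminoacyl-tRNA synthetases and their scaffolds were bound at 10 of 10 members and in all libraries at 9, with medians of 89.2 and 79.1 after forskolin, against 92.7 and 86.5 after vehicle. Of 8 cytosolic ribosomal protein genes in pairs 7 were bound, each in all libraries, and Rps2 was not. Rps27/Rab13, of a small-subunit ribosomal protein and a small GTPase, stood at 98.3 and 96.8 after forskolin, against 97.9 and 95.8 after vehicle. The transcription machinery had 24 genes in pairs, of which 19 were bound and 17 in all libraries, among them Bysl/Med20, Gtf2e1/Rabl3 and Med29/Paf1.

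Mitochondrial genes in pairs were bound at shares near that of all genes in pairs. Of 105 genes of mitochondrial import, chaperones and ribosomes 21 (20.0%) were in pairs, of which 18 (85.7%) had a region and 15 (71.4%) one of all libraries. Of 100 genes of the respiratory chain and ATP synthase 25 (25.0%) were in pairs, of which 20 (80.0%) had a region and 16 one of all libraries. Uqcrq/Gdf9, with a subunit of complex III, led the second list at 97.4 and 96.5 after forskolin, against 96.1 and 92.6 after vehicle. All 7 proteasome genes in pairs had a region, 5 of them in all libraries, but at lower ranks, with medians of 68.6 and 60.4 after forskolin, against 65.2 and 36.9 after vehicle. The region of Psmc5 and Ftsj3 was the highest of them, at 79.7 and 84.1 after forskolin, against 83.4 and 78.2 after vehicle. The single gene of nucleotide synthesis, Gart, paired with Son, stood at 94.1 and 94.1 after forskolin, against 93.9 and 91.1 after vehicle.

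Replication-dependent histone genes, many of which face each other in clusters, had the lowest share of bound genes among the lists with at least 7 genes in pairs. They also had the largest share of genes in divergent pairs among the lists that were counted, 27 of 67, but only 12 of those 27 had a region and 8 one of all libraries. Hist1h2bh/Hist1h3f stood highest, at 86.3 and 83.5 after forskolin, against 81.0 and 70.6 after vehicle, and Hist1h2ag/Hist1h2bj held a full CRE, at 76.9 and 70.4 after forskolin, against 46.7 and 53.7 after vehicle. Histone genes are near-identical copies, and the treatment of reads with several matches in the genome is not known, so the low count is uncertain. Of 18 zinc finger genes in pairs 13 had a region and 8 one of all libraries, led by AA474408/Zfp143.

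The remaining lists had 1 gene or none in pairs, where 7.15% of all genes are. None of 36 immediate targets of CREB and cAMP and none of 17 genes of the osteoblast lineage and matrix stood in a divergent pair, nor did any of the marker genes of adipocytes, chondrocytes, skeletal muscle, or haematopoietic cells and osteoclasts. Of 29 core CREB housekeeping targets 1 did, Psmd10, whose region with Atg4a was missing from vehicle replicate 2. Of the markers, 2 of 8 for osteoblasts (Ibsp and Runx2) had a region within 1 kb of a TSS, as did 1 of 5 for adipocytes (Cebpa), 1 of 5 for haematopoietic cells and osteoclasts (Ctsk), 0 of 5 for chondrocytes and 0 of 4 for muscle. Only Cebpa had a region of all libraries. The share of all genes within 1 kb was not computed, but within 200 bp 26.0% of genes outside divergent pairs had a region. Phospho-CREB peaks show binding and not expression, so the labelled cell type cannot be checked from them.

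The 11 forskolin-only regions at divergent promoters had a median percentile of 20.1 in forskolin replicate 1 and 40.3 in forskolin replicate 2. The 463 such regions at other promoters had medians of 34.8 and 27.2, and all 5187 had medians of 44.6 and 31.9, so the divergent ones were lower in replicate 1 and higher in replicate 2. The region of Sdhaf2/Cpsf7, of an assembly factor of succinate dehydrogenase and a factor of mRNA 3' end processing, stood at 66.7 and 58.2 in the forskolin lists and was in neither vehicle list, but a region listed in vehicle replicate 1 alone was centred 504 bp from it. Btf3l4/Txndc12 stood at 47.2 and 69.0 in the forskolin lists, and its start sites, 987 bp apart, also flank a region of all libraries 725 bp away. Zfp319/AA960436 stood at 42.6 and 40.3 in the forskolin lists, with a vehicle-only region 625 bp away. These 3 regions thus reached no higher than percentile 69.0 in any list.

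The other 8 were at Pus7l/Irak4 (Irak4 is a kinase of Toll-like receptor signalling), Amdhd1/Ccdc38, Hdac3/Rell2 (Hdac3 is a histone deacetylase), Urod/Hectd3 (Urod is an enzyme of haem synthesis), Slc25a27/Cyp39a1, Uqcr10/Zmat5 (Uqcr10 is a subunit of complex III), Spred3/Ggn and Mospd2/Fancb. The last stood at 4.99 and 0.315 in the forskolin lists and is named only to complete the count. The core was found within 100 bp of the centre in 2 of the 11, at Amdhd1/Ccdc38 and Spred3/Ggn, while 38.6% (37.3 to 39.9) of all 5187 forskolin-only regions held it; the interval for 2 of 11 ran from 5.14% to 47.7%. Of the 11, 9 belonged to pairs with start sites more than 200 bp apart, as did 230 of all 627 divergent regions. No test was made on these counts.

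Both vehicle-only regions at divergent promoters had a forskolin-only region close by. The region of Hnrnpd/4930524J08Rik, with an RNA-binding protein that regulates mRNA stability, stood in neither forskolin list and at 64.4 and 55.1 in the vehicle lists, and a forskolin-only region was centred 528 bp from it. The region of Mrpl40/Hira, a mitochondrial ribosomal protein and a histone chaperone, stood in neither forskolin list and at 63.5 and 42.8 in the vehicle lists, and a forskolin-only region was centred 419 bp from it. In both places peaks were therefore listed under each treatment but at separate positions.

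To compare ranks over lists of equal length, the 8930 regions of all libraries were ranked among themselves in each library. The 515 divergent regions had median ranks of 63.8 and 63.5 after forskolin, against 70.0 and 69.6 after vehicle. Both forskolin ranks were below both vehicle ranks at 200 of the 515 (38.8%), where 31.3% of the 8930 were, and above them at 26 (5.05%), where 18.4% were. At other promoters 38.1% of 4964 regions were lower and 7.78% higher after forskolin, and farther than 1 kb from a TSS 20.3% of 3402 were lower and 35.9% higher. The median difference, forskolin minus vehicle, was -3.51 at divergent promoters, -3.91 at other promoters and 3.12 farther away. A rank is relative: regions elsewhere that rank higher after forskolin lower the ranks of those that do not move, so a lower rank does not show less binding. The share lower after forskolin was 30.4% when the top 50% of each list was used, beside 28.5% of all regions. Both shares grew with any library left out, since fewer libraries make an order easier to meet. The share lower became 54.4% with the first forskolin list left out and 56.4% with the second. It became 60.0% with vehicle replicate 1 left out and 63.3% with vehicle replicate 2 left out. Over all regions the share lower was 43.5%, 44.8%, 47.6% and 47.5% in the same order. In these 4 settings the share higher was 17.2%, 10.0%, 15.7% and 13.3%, beside 24.9% to 30.8% of all regions.

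**Figure D5:**
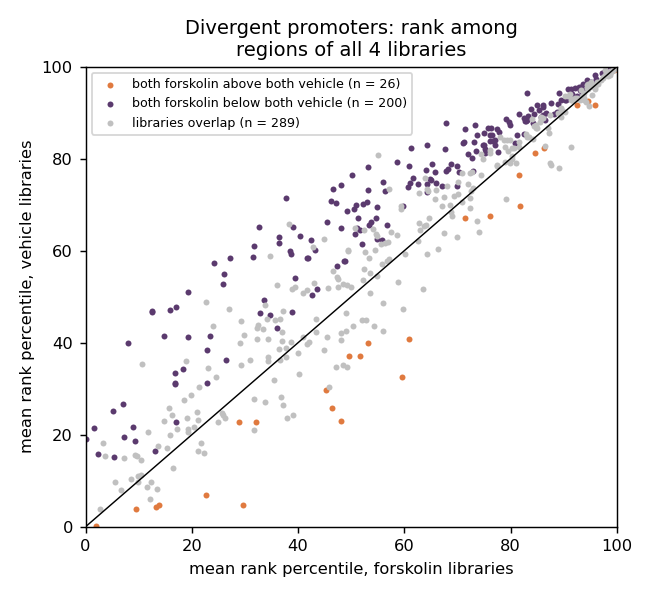
Each point is 1 of the 515 divergent regions of all libraries, placed by its mean rank percentile among the 8930 such regions in the forskolin libraries (x axis) and in the vehicle libraries (y axis). The 200 regions with both forskolin ranks below both vehicle ranks lie above the diagonal, the 26 with the opposite order below it.

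Among divergent regions with both forskolin ranks above both vehicle ranks, the gap between groups was widest at Tmed7/Eif1a, a pair of a vesicle cargo receptor and a translation initiation factor. Its ranks were 25.2 and 34.1 after forskolin, against 8.90 and 0.437 after vehicle. Trappc4/Rps25, of a trafficking factor and a ribosomal protein, stood at 48.4 and 47.6 after forskolin, against 35.1 and 10.9 after vehicle. D0H4S114/Gm10549, Ostf1/BC016495 and Zfp146/Gm5113 followed. Of these 5, Tmed7/Eif1a alone held a CRE core, and a gap of more than 10 rank points was found at 2 of the 515 regions (0.388%), beside 2.24% of other promoters and 10.4% of all 8930 regions.

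In the other direction the widest gap was at Exoc8/Gm505. Exoc8/Gm505, with a subunit of the exocyst, stood at 8.42 and 7.60 after forskolin, against 41.9 and 38.1 after vehicle. Mphosph10/Mcee, of a factor of ribosomal RNA processing and a mitochondrial epimerase, stood at 28.1 and 26.1 after forskolin, against 59.5 and 57.5 after vehicle. Nae1/Car7, of a subunit of the NEDD8-activating enzyme and a carbonic anhydrase, stood at 15.2 and 9.93 after forskolin, against 44.3 and 49.2 after vehicle. Rbak/4933411G11Rik and Atg2b/4933433P14Rik followed, and a gap of more than 10 rank points was found at 34 of the 515 regions (6.60%), beside 9.43% of other promoters and 8.12% of all 8930 regions. None of these 5 held a CRE core within 100 bp of its centre. The 5 on each side were picked for their ranks, so these values are a description.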

How the data were processed

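The deposited files are 1 peak list per library, with a position and a score for each peak, so the authors called peaks in each library separately. The tools named are Bowtie, an aligner, and HOMER, per the submitters' processing notes, with mm9 as the build and no versions. For the settings of peak calling the sources used here give nothing, and an input library of another series was left out. The score is the authors' deposited value on an unstated scale and served only to rank peaks within a list. The lists give no read totals. Scores below 50 fell on multiples of a step; if that step is 1 tag, forskolin replicate 2 had 0.347 of the reads of forskolin replicate 1, and the vehicle libraries had 1.03 and 1.06 times as many as forskolin replicate 1.

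Peaks were merged at 1 bp of overlap, and start sites were the 5' ends of GENCODE M1 gene records on NCBIM37, the assembly of mm9. Both strands of the genome sequence were searched for motifs up to 100 bp from a region's centre. Shares have Wilson 95% intervals, which cover counting error only. Library values were compared with exact permutation tests over libraries, and no test was made over regions or genes. A same-numbered pair of libraries shares only a number in the labels. Pairs were named by fixed rules: the 10 highest-ranked, up to 10 forskolin-only, up to 5 vehicle-only, the 5 with the widest rank gap each way, the 10 highest-ranked with a full CRE, and up to 4 for each gene list. The members, lists, motifs and rules were chosen with earlier results of these data known. The names of 1 of the 9 pairs with 2 regions are not reported here. Scores were not turned into counts, and the merging and pairing rules were tested on simulated lists. The scripts ran under Python 3.11.15 with pysam 0.24.0, scipy 1.17.1, numpy 2.4.6 and matplotlib 3.10.9.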

Additional observations from a re-analysis of the deposited data

How the results depend on the processing

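With 2 libraries per treatment no comparison between treatments could reach a p below 0.333, and depth is not known directly. Over the summary values, 99 alternatives were counted as unchanged, 26 as moved and 1 as reversed. A share counted as unchanged inside the Wilson interval of its main value, and a difference whenever it kept its sign. Unchanged therefore does not mean a small change for the differences. The lead in median percentile counted as unchanged at 4.52 points, with 11.1 ± 1.13 (SD, n = 4) on the full lists. The number of divergent regions counted as unchanged even at 856, with 627 in the main setting. The reversal was the difference in bound divergent regions, 38.0 on the full lists and -68.5 when each list was cut to the length of the shortest; the cause was not tested beyond that construction. The equal lists also gave 70.9% in all libraries, 0.345% forskolin-only and 72.5% of pairs with a region. The lead of divergent over other promoters in median percentile was 11.1 points on full lists, 6.10 with equal lists and 4.52 with the top 50%. The difference in share of the lists was -1.91, -0.673 and -2.75 percentage points in the same order. The top 50% of each list gave 66.3% in all libraries, 68.3% of pairs with a region, 44.9% with a core, 30.4% ranked lower in both forskolin libraries (28.5% of all regions) and 8.84% ranked higher (17.3%). Merging only peaks that overlapped by 50% gave 74.8% in all libraries. For these settings and those below, the shares in all libraries and forskolin-only were not computed over all regions or other promoters. Whether the contrast with other regions held there was not tested. Without the 200 bp margin there were 355 regions, 85.6% in all libraries, and 44.9% of pairs had a region. Using the 5' end of any transcript gave 73.7% of pairs with a region. Searching the whole region gave a core in 53.1%.

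Leaving out each library in turn gave 83.4% to 88.4% in all libraries, 2.94% to 8.77% forskolin-only, a difference of 13.0 to 65.5 bound regions, a difference of -2.54 to -1.28 percentage points of the lists, and 10.7 to 11.5 percentile points above other promoters. Pairs with a region were 76.2% to 78.5%. Regions ranked lower in every remaining forskolin library were 54.4% to 63.3% (43.5% to 47.6% of all regions) and those ranked higher 10.0% to 17.2% (24.9% to 30.8%), where fewer libraries make both orders easier to meet. The ranking among regions of all libraries and the comparison within CpG classes were added after the data were seen. With the replicate number as a block the differences were 38.0 regions and -1.91 percentage points (exact permutation p = 0.50 each, the smallest possible); same-numbered libraries deviated together with r = 0.133 over 8930 shared regions, and with 2 numbers this does not show a pairing. For single named pairs, 716 values were counted as unchanged and 81 as moved, and none reversed. A pair's share of libraries counted as unchanged only when it was equal, and its rank difference whenever it kept its sign. At 6 pairs the share of libraries moved other than by fewer peaks or libraries.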

Other observations

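In each of the 9 divergent pairs with 2 regions except Casc1/Lyrm5, both regions differed in the libraries that listed them. Each region of Casc1/Lyrm5 was listed in 1 forskolin and 1 vehicle library, but whether these were the same replicates was not compared. Txndc9/Eif5b had 1 region of all libraries and 1 found in a single library. Leprel4/Fkbp10, a pair of genes for collagen-modifying proteins of the endoplasmic reticulum, and Alg3/Ece2 each had 1 region of all libraries and 1 found in both forskolin libraries and 1 vehicle library. Btf3l4/Txndc12 had 1 region of all libraries and 1 forskolin-only region.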
